A study of Mus musculus with 6 samples.

Results

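Smooth muscle contractile genes encode the actin, myosin and thin-filament proteins that give the smooth muscle of vessel walls its contraction. The 9 followed here, Cnn1, Acta2, Myh11, Tagln, Smtn, Lmod1, Mylk, Actg2 and Myl9, were listed by name, because in an earlier look at the same mice Cnn1, Acta2 and Myh11 rose in cD2KO cells and the other 6 belong to the same apparatus. The list was thus selected on the counts of these 6 mice. They are 9 of the 31053 genes counted, and all 9 were among the 11633 genes that passed the minimum used for testing, a mean of normalised counts above 10. The choice used the difference between cD2KO and control, so their differences between the groups are given below as a description, with standard errors and without p-values, and counts of genes called stand only beside the share of all genes called.

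The RNA came from cells of hindlimb muscle of mice of 3 to 4 months. They were sorted by FACS by the green fluorescence of a Pax7-nGFP reporter. The study names them quiescent muscle stem cells (qMuSCs), the resting stem cells of skeletal muscle. Below, qMuSCs stands for this sorted population, whose libraries also held counts of markers of other cell types. The 3 control mice, c124, c129 and c130, had the genotype Pax7nGFP/+;Pax7+/+;Dio2Fl/Fl, and the 3 cD2KO mice, fl125, fl126 and fl128, had the genotype Pax7nGFP/+;Pax7-CreERT2/+;Dio2Fl/Fl, with 1 library per mouse. All 6 mice thus carried the reporter and the floxed alleles of Dio2, which encodes the type 2 deiodinase that makes active thyroid hormone, and all received tamoxifen, which turns on the CreERT2 recombinase. Only the cD2KO mice carried Pax7-CreERT2, so loss of Dio2 and the presence of the Cre allele cannot be told apart, and the Cre is driven by Pax7, a gene of muscle stem cells and not of smooth muscle.

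Contraction of smooth muscle starts when myosin light chain kinase, the product of Mylk, phosphorylates the regulatory light chain Myl9, which lets the myosin heavy chain Myh11 pull on filaments of smooth muscle actin. Calponin (Cnn1), transgelin (Tagln), smoothelin (Smtn) and leiomodin (Lmod1) bind or build those actin filaments. The genes are classical targets of serum response factor, which binds a short AT-rich element called the CArG box and works there with myocardin and its relatives, and in skeletal muscle they are best known from arterioles and other mural cells, the contractile cells around small vessels.

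Total counts lay between 2184073 and 3897787 reads per mouse, and 3 counts equalled 0.768 to 1.36 CPM (counts per 1000000 reads of a library, with TMM scaling). Pax7, the marker of the sort, was present in every library, at 408, 211 and 431 CPM in c124, c129 and c130 and at 688, 452 and 314 CPM in fl125, fl126 and fl128, and none of the 12 muscle stem cell markers was at 0 throughout. The targeted gene Dio2 had only 21, 5 and 10 counts in the control mice and 15, 5 and 1 in the cD2KO mice, below the minimum, over the whole gene and with overlap of the groups. Hence the library labelled fl125 was not told apart from the control mice by Dio2. The same library stood apart by its immune markers, whose summed level was 256 CPM there and 2697 to 8476 CPM in the other mice. The results that rest on fl125 or on fl128, the library with the highest levels of most contractile genes, are given for the contractile genes with and without them.

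Promoter sequences are shown because these genes are known as targets of serum response factor and were high in the same mice. RefSeq (GRCm38.p6, mm10) gave a transcription start for 6 of the 9 genes, all but Myh11, Tagln and Actg2. The 250 bases before each start were searched for the CArG box on both strands, which for this palindromic motif is 1 search. The genes below are the 3 with a match and Cnn1, the gene with the largest fold change, which had none. Each sequence is written 5′ to 3′ on the strand of its gene, and capitals mark every CArG box with at most 1 mismatch. The windows lie at chr19:34255374-34255623 on the minus strand for Acta2, at chr2:156775214-156775463 on the plus strand for Myl9, at chr1:135324563-135324812 on the plus strand for Lmod1 and at chr9:22099003-22099252 on the plus strand for Cnn1.
Acta2: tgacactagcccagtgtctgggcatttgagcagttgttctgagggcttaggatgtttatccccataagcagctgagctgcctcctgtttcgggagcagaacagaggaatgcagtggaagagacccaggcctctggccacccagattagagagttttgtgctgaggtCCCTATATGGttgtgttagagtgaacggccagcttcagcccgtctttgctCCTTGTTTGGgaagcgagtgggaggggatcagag
Myl9: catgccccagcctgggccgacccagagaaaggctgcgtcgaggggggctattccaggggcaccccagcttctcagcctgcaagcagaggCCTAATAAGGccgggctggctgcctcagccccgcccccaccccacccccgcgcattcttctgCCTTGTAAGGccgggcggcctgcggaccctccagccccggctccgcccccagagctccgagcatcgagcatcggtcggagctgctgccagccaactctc
Lmod1: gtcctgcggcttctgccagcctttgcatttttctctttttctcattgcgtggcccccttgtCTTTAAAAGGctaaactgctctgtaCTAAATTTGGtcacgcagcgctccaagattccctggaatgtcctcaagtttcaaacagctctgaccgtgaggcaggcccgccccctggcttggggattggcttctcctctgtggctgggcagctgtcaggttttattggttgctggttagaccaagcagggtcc
Cnn1: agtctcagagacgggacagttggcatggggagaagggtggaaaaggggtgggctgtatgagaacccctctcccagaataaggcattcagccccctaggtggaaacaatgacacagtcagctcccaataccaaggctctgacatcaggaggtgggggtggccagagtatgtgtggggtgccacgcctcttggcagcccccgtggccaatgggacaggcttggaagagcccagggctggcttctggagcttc
Only the Myl9 window held an exact CArG box, CCTAATAAGG, from 161 to 152 bases before the start, and it held CCTTGTAAGG with 1 mismatch from 99 to 90 bases before it. In Acta2 the elements CCCTATATGG and CCTTGTTTGG, each with 1 mismatch, began 84 and 34 bases before the start, and in Lmod1 CTTTAAAAGG and CTAAATTTGG, each with 1 mismatch, began 189 and 164 bases before it. Among all 32851 RefSeq promoters of the same length, 1.47% held an exact box and 18.6% held a box with at most 1 mismatch. The windows of Smtn, Mylk and Cnn1 held none, which says only that these letters are not in the windows searched.

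Of the smooth muscle actins, Acta2 encodes the alpha form typical of vessels and Actg2 the gamma form typical of gut and other viscera. Acta2 (ENSMUSG00000035783, chr19:34241090-34255590, minus strand) was at 3959, 1559 and 2451 CPM in c124, c129 and c130 and at 4421, 5614 and 7901 CPM in fl125, fl126 and fl128. All cD2KO mice lay above all control mice, but the gap was narrow, since the control mouse c124 nearly reached fl125. The means were 2656 ± 1213 CPM in control and 5978 ± 1768 CPM in the cD2KO group (SD, n = 3), which is a log2 fold change of 1.17 with a standard error of 0.33, or 2.25-fold. The fold change was 0.92 without fl128 and 1.38 without fl125 on the log2 scale. Acta2 had the widest relative spread of the 9 members among control mice, with a coefficient of variation of 45.7%. Since each library is the RNA of a whole sorted population, more cells of a type and more RNA per cell cannot be told apart.

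Actg2 (ENSMUSG00000059430, chr6:83512905-83536265, minus strand) had 79, 65 and 29 counts in the control mice and 4, 173 and 142 counts in fl125, fl126 and fl128. This gave 20.2, 23.9 and 10.04 CPM in control and 1.81, 59.2 and 44.6 CPM in cD2KO. It was the only member whose groups overlapped: fl125 was the lowest of the 6 mice and fl126 and fl128 were the 2 highest. Its log2 fold change of 0.98 had a standard error of 1.01, and it became 0.78 without fl128, 1.55 without fl125 and 0.28 with limma voom, so that no level of change can be given for Actg2.

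The motor protein of smooth muscle is the heavy chain Myh11 (ENSMUSG00000018830, chr16:14194535-14291372, minus strand). It was at 2117, 1984 and 2432 CPM in c124, c129 and c130 and at 3092, 3860.4 and 6098 CPM in fl125, fl126 and fl128. The control mice stayed close together, at 2178 ± 229.6 CPM, and the cD2KO mice were all above them but far apart, at 4350.2 ± 1562 CPM (SD, n = 3 in each group). The log2 fold change was 0.996 with a standard error of 0.25, and it was 0.67 without fl128 and 1.23 without fl125.

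Myl9 (ENSMUSG00000067818, chr2:156775420-156781658, plus strand), the regulatory light chain, followed the heavy chain. Its level was 2764, 2349 and 2613 CPM in the control mice and 2986, 4568 and 6518 CPM in fl125, fl126 and fl128. In fl125 Myl9 was hardly above the highest control mouse, c124. The means of 2576 ± 210.0 and 4691 ± 1769 CPM (SD, n = 3 in each group) gave a log2 fold change of 0.86 with a standard error of 0.26, which fell to 0.55 without fl128 and rose to 1.14 without fl125.

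Mylk (ENSMUSG00000022836, chr16:34745210-35002420, plus strand), the kinase of that light chain, was at 2036, 1365 and 1932 CPM in control and 3278, 3050.4 and 4521 CPM in cD2KO qMuSCs, in the order of mice given above. Here fl125 was slightly above fl126, and the groups were well separated. The log2 fold change was 1.02 with a standard error of 0.23 (0.83 without fl128, 1.13 without fl125), between 1778 ± 361 and 3617 ± 792 CPM (SD, n = 3 in each group).

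Among the thin-filament proteins, Cnn1 (ENSMUSG00000001349, chr9:22099216-22109630, plus strand), which encodes calponin, an actin-binding inhibitor of the myosin ATPase, differed most. It was at 179, 188 and 228 CPM in c124, c129 and c130 and at 375, 490.1 and 756 CPM in fl125, fl126 and fl128. The lowest cD2KO mouse was well above the highest control mouse. Means of 198 ± 25.8 and 540.4 ± 195 CPM (SD, n = 3 in each group) gave a log2 fold change of 1.44 with a standard error of 0.25, or 2.72-fold, and it was 1.12 without fl128 and 1.69 without fl125.

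Tagln (ENSMUSG00000032085, chr9:45929619-45936058, minus strand), which encodes the actin cross-linker transgelin, was at 107, 116 and 120 CPM in control and 245, 186 and 231 CPM in cD2KO qMuSCs. It was the member with the smallest spread among control mice, at 114 ± 6.47 CPM, and the only one with its highest level in fl125. The log2 fold change was 0.95 with a standard error of 0.19, to 221 ± 30.9 CPM in cD2KO (SD, n = 3 in each group). It was 0.91 without fl128 and 0.91 without fl125. In the annotation 62.4% of the exon bases of Tagln are shared with Gm48529, an antisense gene on the other strand that had 0 to 11 counts, and 5.43% with Pcsk7. Where strand was not used in counting, reads in these bases cannot be given to either gene, so the level of Tagln is uncertain.

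Smtn (ENSMUSG00000020439, chr11:3517523-3540612, minus strand), which encodes a filament-bound protein of contractile smooth muscle cells, was at 523, 364 and 517 CPM in control and 633, 875 and 1175 CPM in cD2KO qMuSCs. The groups did not overlap and the log2 fold change was 0.93 with a standard error of 0.25, or 0.69 without fl128 and 1.17 without fl125. Lmod1 (ENSMUSG00000048096, chr1:135324807-135368065, plus strand), which encodes the nucleator of smooth muscle actin filaments, was at 339, 408 and 398 CPM in control and 600.0, 578 and 771 CPM in cD2KO qMuSCs. Its log2 fold change of 0.76, with a standard error of 0.20, was the smallest of the 9, and its groups did not overlap. Without fl128 it was 0.62 and without fl125 0.86.

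**Figure D1:**
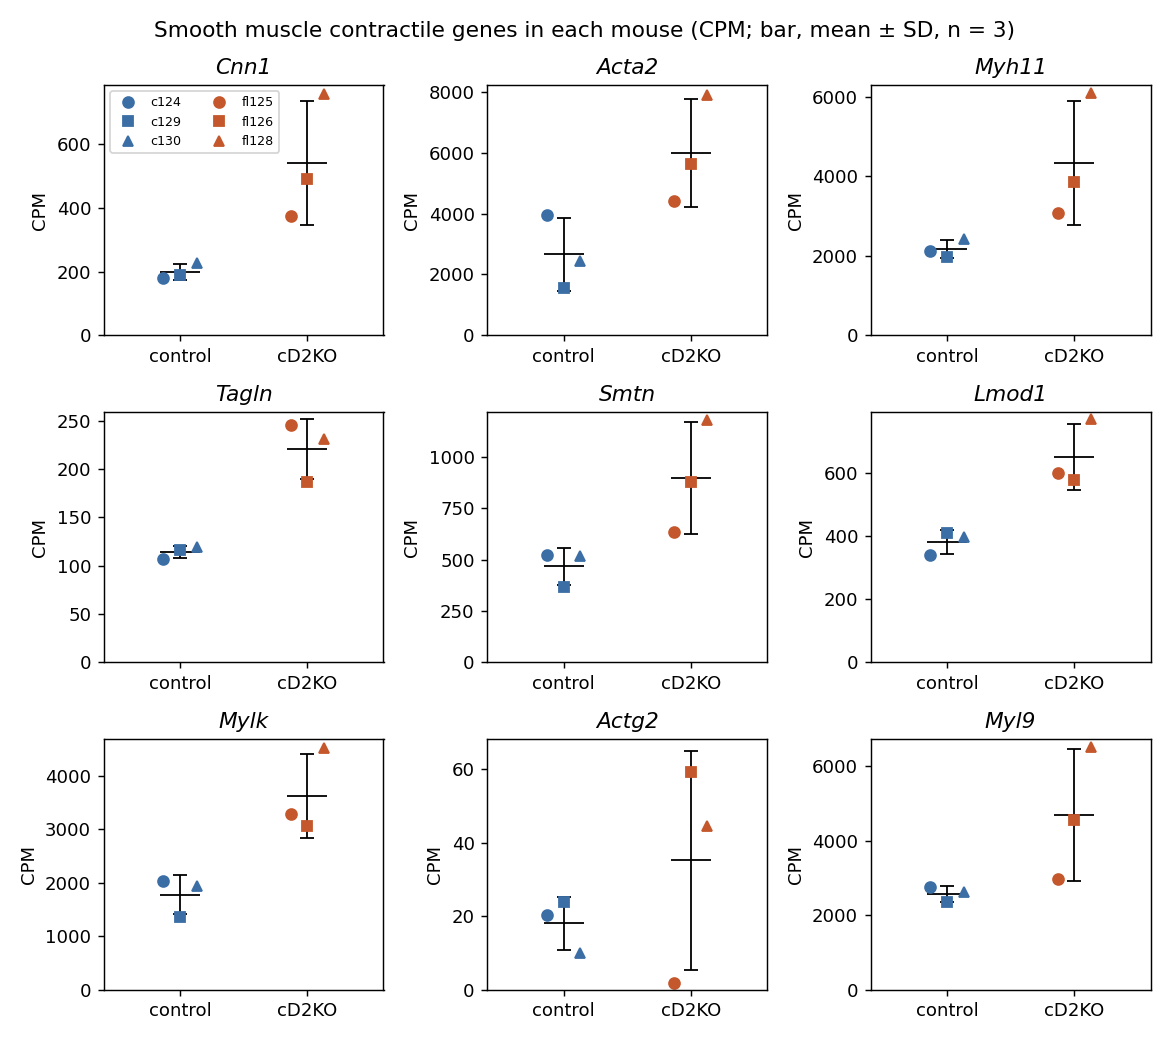
Level of each contractile gene in each mouse, in CPM on a linear axis from 0, with the mean and SD of 3 mice as a bar. All cD2KO mice lie above all control mice in 8 genes, while Actg2 is at 1.81 CPM in fl125 and at 59.2 CPM in fl126.

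The 9 log2 fold changes ran from 0.76 to 1.44 with a median of 0.98, and the median over all 11633 genes tested was -0.02. In 8 of the 9 genes every cD2KO mouse was above every control mouse, a pattern that 8.1% of all genes tested had in that direction. Called by the quasi-likelihood test of edgeR at an unadjusted p under 0.05, 8 of the 9 were higher, where 5.34% of all genes tested were, and with an adjusted p under 0.1, 3 of the 9 were, where 0.284% of all genes were. None of the 9 had an adjusted p under 0.05, where 0.0086% of all genes did. Because these genes were listed for this difference, nothing is read from the counts. The median was 0.78 without fl128 and 1.17 without fl125, and 0.97 without Actg2, a setting chosen after the values were seen.

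The contractile genes took up a visible part of each library. Together they held 1.21%, 0.873% and 1.10% of all counts in c124, c129 and c130 and 1.58%, 1.89% and 2.64% in fl125, fl126 and fl128. The exact 95% binomial interval was 1.20% to 1.22% in c124 and 2.62% to 2.65% in fl128, and it covers counting error only. Divided by the length of annotated exons, to allow genes to be compared, Myl9 was the highest member, with 2216 ± 181 CPM per kb in control and 4037 ± 1523 CPM per kb in cD2KO qMuSCs. It ranked 16 among the genes tested in control and 7 in cD2KO. Acta2 came next on this scale, at 1210 ± 552 and 2722 ± 805 CPM per kb. Myh11, at 287 ± 30.2 and 572 ± 206 CPM per kb, followed. Mylk, Smtn, Lmod1, Cnn1 and Tagln lay between 57.6 and 158 CPM per kb in control and between 111 and 321 in cD2KO qMuSCs. Actg2 was last, at 11.6 ± 4.62 and 22.6 ± 19.2 CPM per kb. In control mice the order from high to low was Myl9, Acta2, Myh11, Mylk, Smtn, Lmod1, Cnn1, Tagln and Actg2, and Mylk with Smtn and Smtn with Lmod1 were the neighbours whose ranges of 1 SD around the mean overlapped. In cD2KO mice Cnn1 stood above Lmod1, and Acta2 with Myh11, Lmod1 with Tagln and Tagln with Actg2 were the neighbours whose ranges did not overlap. The scale assumes reads spread over the whole transcript, which the sources used here do not state. It also takes all exon bases of Tagln as counted, though 62.4% are shared with Gm48529, so the place of Tagln is uncertain.

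Over the 6 mice the genes moved together, apart from Actg2 and, in part, Tagln and Acta2. This movement includes the difference between the groups, on which the list was chosen. Among control mice alone the genes did not share an order, and c124 was the highest in 4 genes and the lowest in 3. The mouse fl128 had the highest level of 7 members, fl125 that of Tagln and fl126 that of Actg2. Within the cD2KO group 5 of the 9 genes had the order fl125, fl126, fl128 from low to high. In the control group 4 of the 9 genes had the order c129, c130, c124, and the other 5 had 4 other orders. The mouse c129 was the lowest of the 6 mice in 5 genes and c124 in 3. As a measure of moving together, the SD over the 6 mice of the log2 ratio of a pair of genes was taken, which is 0 for genes in a fixed ratio. Over the 28 pairs without Actg2 it ran from 0.15 to 0.60 with a median of 0.33, while the SD of the log2 level of each of these 8 genes was between 0.45 and 0.84. Myh11 with Myl9, Smtn with Myl9, and Myh11 with Smtn were the tightest pairs, with 0.15, 0.15 and 0.16. Over all 36 pairs the range reached 1.92, through Actg2. The points of such a pair share their libraries and the difference between the groups, so the SDs are a description.

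**Figure D2:**
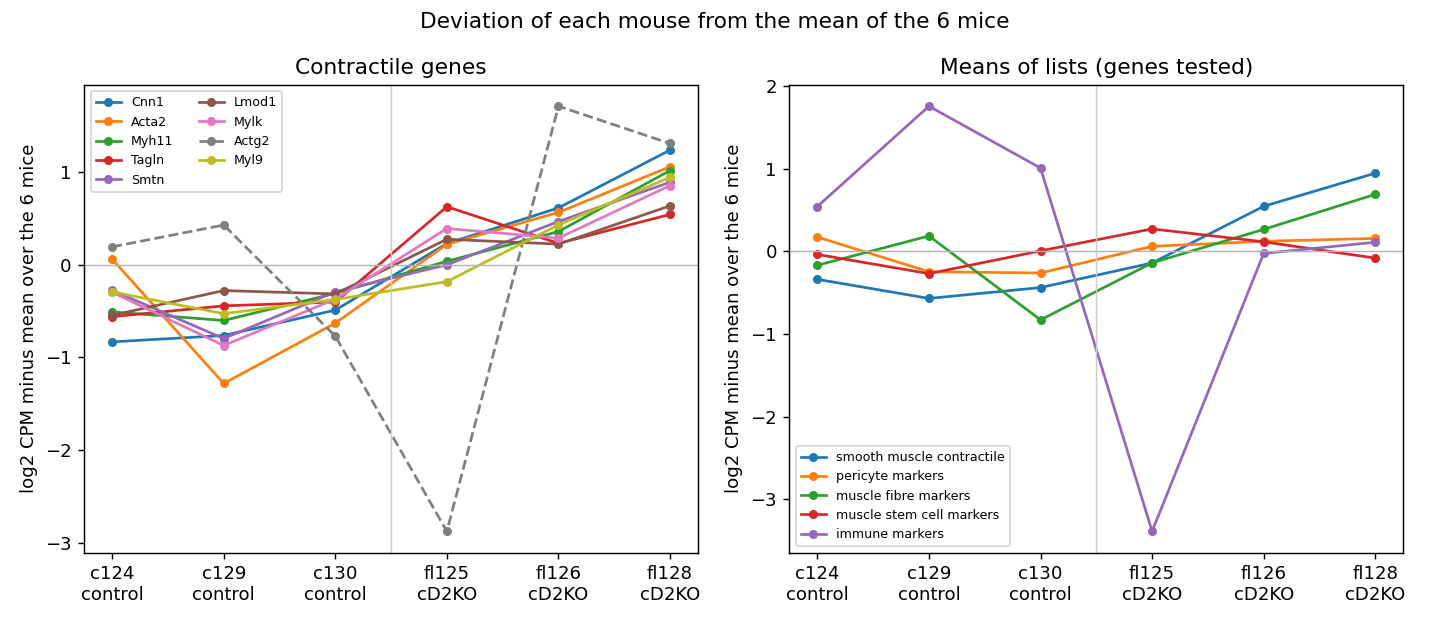
Left, log2 CPM of each contractile gene in each mouse minus its mean over the 6 mice; right, the mean of these deviations over the tested genes of 5 lists. Lines only join the points of a gene or list. Actg2 and the immune markers drop in fl125. The other contractile genes are spread within a mouse, in c129 from -1.28 (Acta2) to -0.28 (Lmod1).

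The other members were also counted per count of Myh11. This is a description, since Cnn1, Acta2 and Myh11 were themselves listed for their rise in cD2KO. Only Cnn1 separated the groups, with 0.0848, 0.0948 and 0.0937 counts per Myh11 count in the control mice and 0.121, 0.127 and 0.124 in the cD2KO mice. The ratios of the other 7 overlapped between groups. For Myl9 the ratio to Myh11 stayed between 0.966 and 1.31 in all 6 mice, and for Smtn between 0.184 and 0.247. Acta2 and Actg2 varied widely within the control group. For Acta2 there were 1.87 counts per Myh11 count in c124 and 0.786 in c129, and the 3 cD2KO mice lay between these values. Per count of Actb, the cytoplasmic beta-actin, 6 members separated the groups and Acta2, Actg2 and Myl9 overlapped. The share of all genes that separate the groups per count of Myh11 or of Actb was not computed, so nothing is read from these numbers.

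Per count of Pax7, none of the 9 members separated the groups. The share of all genes that separate the groups on this scale was not computed, and Pax7 itself varied between mice. Nothing is therefore read from the overlap. The 9 genes together made 29.5, 39.6 and 24.8 counts per Pax7 count in c124, c129 and c130 and 22.7, 42.6 and 89.1 in fl125, fl126 and fl128. Of the cD2KO mice, fl126 was slightly and fl128 far above the highest control mouse, and fl125, with the highest Pax7 level, was the lowest of the 6.

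**Figure D3:**
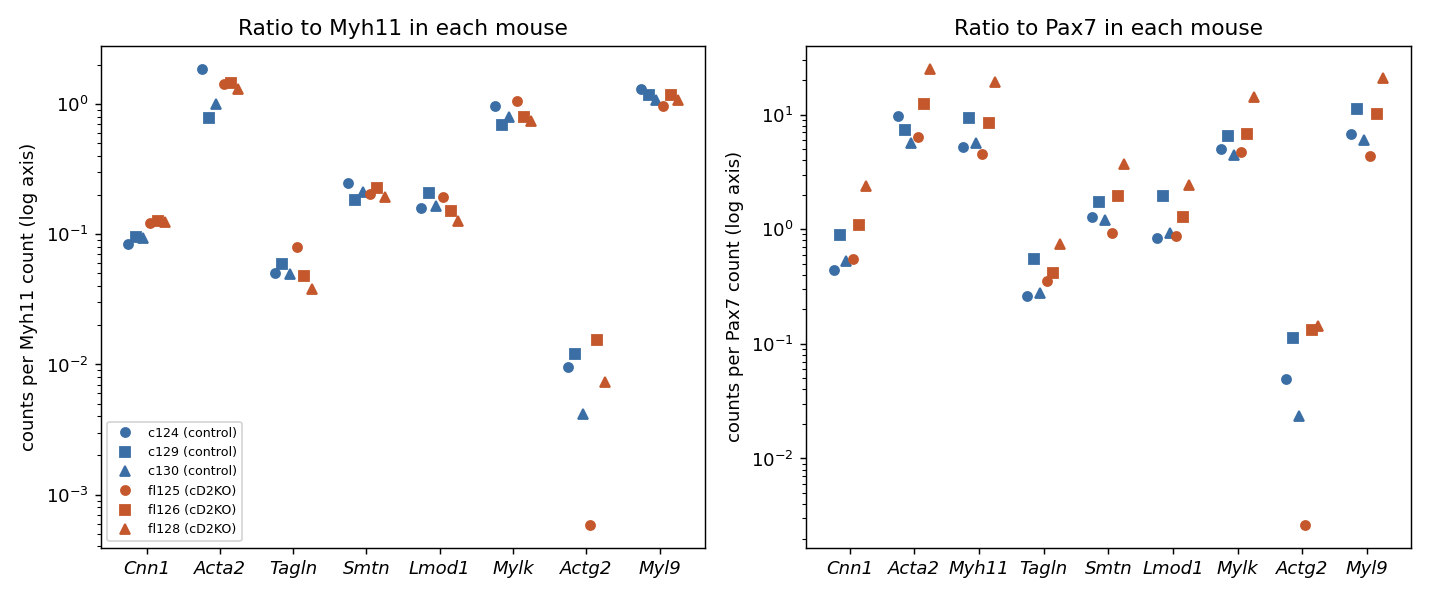
Counts of each contractile gene per count of Myh11 (left) and per count of Pax7 (right) in each mouse, on log axes. Relative to Myh11 only Cnn1 separates the groups, and relative to Pax7 all 9 genes overlap.

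Genes that encode the non-muscle or striated forms of the same proteins allow the members to be set beside their nearest relatives. Of 23 such counterparts 21 were tested, with a median log2 fold change of 0.17. At an unadjusted p under 0.05, 3 were called higher and 0 lower, where 5.34% of all genes tested were higher and 6.62% lower. Actb was at 8619 ± 1055 CPM in control and 9710 ± 1066 CPM in cD2KO qMuSCs, and the skeletal actin Acta1 at 949 ± 432 and 1519 ± 528 CPM (SD, n = 3 in each group), with overlap in both. For calponin, Cnn2 was at 105 ± 3.70 and 127 ± 37.9 CPM and Cnn3 at 242 ± 20.5 and 296 ± 22.3 CPM, beside the 2.72-fold difference of Cnn1. The non-muscle heavy chain Myh9 was at 357 ± 20.4 CPM in control and 279 ± 37.2 CPM in cD2KO qMuSCs and the transgelin relative Tagln2 at 578 ± 76.3 and 448 ± 45.3 CPM. In both of these all cD2KO mice lay below all control mice, and neither passed the test. They were the only 2 of the 21 counterparts with this pattern, which 10% of all genes tested had. In 3 others, Cnn3, Myl6 and Myl2, all cD2KO mice lay above all control mice, as in 8.1% of all genes tested. Nothing is read from these counts. The non-muscle light chains Myl12a and Myl12b had log2 fold changes of 0.00 and -0.19. Those called higher were the essential light chain Myl6 (log2 fold change 0.56, standard error 0.24), the slow and cardiac light chain Myl2 (0.68, standard error 0.30) and Smtnl1 (2.01, standard error 0.70), which had a mean of only 2.21 CPM in control. The members share at most 0.340% of their 50-base stretches with other genes, Myh11 with Myh9, while the cytoplasmic gamma-actin Actg1 shares 37.4% and was counted at 1.37 to 7.37 CPM.

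Serum response factor and the regulators that work with it at the CArG box are set beside their targets. Of 12 listed genes 11 were tested. Called higher were 2 and lower 1, where 5.34% of all genes tested were higher and 6.62% lower. The median log2 fold change was -0.06, but it was 0.35 with limma voom and 0.22 without c129, so its direction is not settled. Srf itself was at 73.0, 41.3 and 57.5 CPM in control and 106, 60.9 and 75.8 CPM in cD2KO qMuSCs, the groups overlapped and the log2 fold change was 0.49 (standard error 0.26). Myocd, which encodes myocardin, was near the limit of 3 counts in some mice, at 0.692 to 9.21 CPM in control and 2.72 to 4.79 CPM in cD2KO. The myocardin-related coactivators Mrtfa and Mrtfb had log2 fold changes of -0.18 and -0.35 with overlapping groups. Called higher were the genes of the LIM proteins Csrp1 (0.98 on the log2 scale, standard error 0.28) and Csrp2 (0.80, standard error 0.22). Klf4, a factor known to repress contractile genes, was called lower, at 107, 253 and 176 CPM in c124, c129 and c130 and 67.1, 71.2 and 64.1 CPM in fl125, fl126 and fl128. Its log2 fold change was -1.41 with a standard error of 0.27, lower in 3 of 3 cD2KO mice than in any control mouse, with an adjusted p of 0.0885 from edgeR. Any link of Klf4 to the contractile gene levels, or to the lower immune and endothelial markers given below, was not tested.

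Genes of the actin filament, the dense bodies and the adhesions of smooth muscle were listed with results of these mice known. Of the 18, all of them tested, 13 were called higher and 0 lower, with a median log2 fold change of 0.68. Of all genes tested, 5.34% were called higher and 6.62% lower. The 4 with the smallest p were Pdlim7, a scaffold of the actin cytoskeleton (1.25 on the log2 scale, standard error 0.25), and Pgm5, Synpo2 and Tpm2, at 0.79, 0.82 and 1.13. Tpm2, the beta-tropomyosin of the thin filament, had means of 1855 ± 207 CPM in control and 4060.1 ± 1868 CPM in cD2KO mice (SD, n = 3 in each group) and reached 6126 CPM in fl128. Many of these genes are also used by skeletal muscle and stem cells. Among the 14 regulators of myosin phosphorylation, 4 were called higher and 0 lower, with a median of 0.24. Ppp1r14a, which encodes the smooth muscle inhibitor of myosin phosphatase, was at 275, 221 and 251 CPM in control and at 275, 646 and 963 CPM in fl125, fl126 and fl128. In fl125 it was at the level of the control mouse c124, and its log2 fold change of 1.33 had a standard error of 0.38. The myosin phosphatase subunits Ppp1r12a and Ppp1r12b were higher by 0.51 and 0.55 on the log2 scale, and Mrvi1, a target of the cyclic GMP kinase, by 0.71.

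Of 14 channel, receptor and cyclic GMP genes 13 were tested, and 6 were called higher and 0 lower, with a median of 0.45. Phospholamban (Pln), which restrains the calcium pump, was higher by 0.93, the phosphodiesterase Pde5a by 0.77, the IP3 receptor Itpr1 by 0.64 and the beta subunit of the BK channel, Kcnmb1, by 0.98 on the log2 scale. The angiotensin receptor Agtr1a, the endothelin receptor Ednra and the channels Kcnma1 and Trpc6 had overlapping groups, with log2 fold changes of -0.08, 0.11, -0.14 and -0.72. In all 5 lists of related genes, 77 of 81 genes were tested, of which 28, or 36.4%, were called higher and 1 lower, beside 5.34% higher and 6.62% lower among all genes tested. Without a mouse the number called higher was between 20 (without c130 or without fl128) and 37 (without fl125). Like the members, the lists were chosen with results of these mice known.

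**Figure D4:**
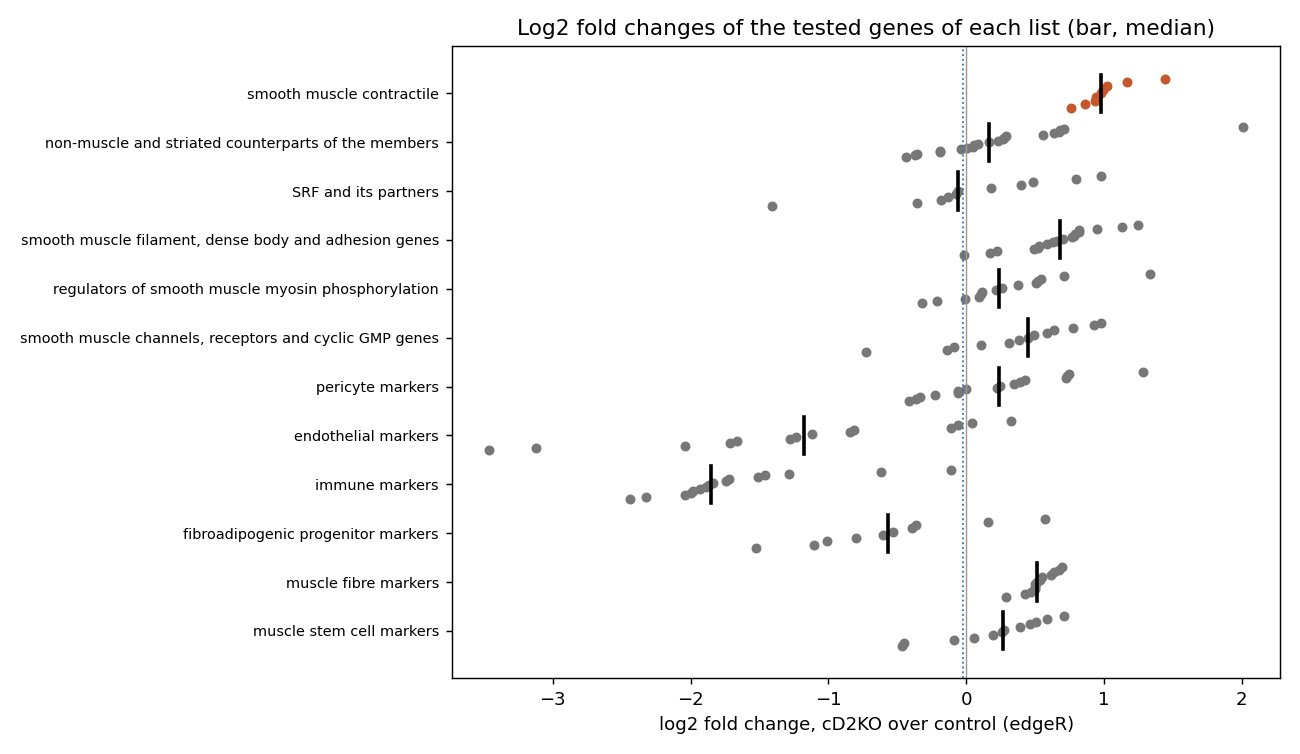
Log2 fold change of cD2KO over control (edgeR) for each tested gene of the contractile list and of 11 other lists, with the median as a bar and the median of all genes tested as a dotted line. The contractile genes lie between 0.76 and 1.44, the filament and dense body genes have a median of 0.68 and the immune markers one of -1.85.

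Pericytes and vascular smooth muscle cells share the vessel wall, so pericyte markers are set beside the contractile genes. All 16 were tested. Called higher were 4 (Mcam, Gja4, Notch3 and Cox4i2) and lower 0, where 5.34% of all genes tested were higher and 6.62% lower. The median log2 fold change of the 16 markers was 0.24. Their summed level was 2943 to 4749 CPM in control and 4089 to 4781 CPM in cD2KO qMuSCs, and none was at 0 throughout. Rgs5, the most abundant pericyte marker, was at 2148, 1150 and 1069 CPM in c124, c129 and c130 and at 2318, 1224 and 841 CPM in fl125, fl126 and fl128. It was highest in c124 and fl125 and lowest in fl128, the mouse with the highest contractile levels. Per count of Rgs5 the groups overlapped for all 9 members. The share of all genes that separate the groups per count of Rgs5 was not computed, so nothing is read from this overlap. The log2 fold changes of Pdgfrb, Cspg4, Kcnj8 and Abcc9 were -0.06, 0.25, -0.36 and -0.23, all with overlapping groups. Notch3, a receptor of mural cells and of muscle stem cells, was at 637 ± 154 CPM in control and 1070 ± 275 CPM in cD2KO qMuSCs (SD, n = 3 in each group). The part of mural cells in the levels of the contractile genes was not tested.

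Markers of other cells are given in the same way, beside 5.34% called higher and 6.62% called lower among all genes tested. Of 16 immune markers tested from 18, 4 were called lower and 0 higher, with a median log2 fold change of -1.85 and a summed level of 4467 to 8476 CPM in control and 256 to 3116 CPM in cD2KO qMuSCs; Cd79a was at 0 in all mice. Of 14 endothelial markers tested from 16, 7 were called lower and 0 higher, with a median of -1.18 and sums of 319 to 479 and 270 to 338 CPM. Of 10 fibroadipogenic progenitor markers tested from 11, 2 were lower and 1 higher, with a median of -0.57 and sums of 4031 to 6402 and 2488 to 5394 CPM. All 13 muscle fibre markers had a log2 fold change above 0, where 48.1% of all genes tested did, with 1 called higher, a median of 0.52 and sums of 2545 to 5677 and 4523 to 8543 CPM. Their sum was highest in fl128, as were most contractile genes, and lowest in c130. Of the 12 muscle stem cell markers 3 (Itga7, Cdh15 and Myf5) were higher and 0 lower, with a median of 0.27 and sums of 1689 to 2256 and 2005 to 3198 CPM, highest in fl125. The part of any of these cells in the contractile gene levels was not tested.

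To find genes with a like pattern, the deviation of each gene from its own mean in log2 CPM was compared with the mean deviation of the 9 members over the 6 mice, by the root mean square difference, among 7461 genes with a mean count of at least 50. The nearest were St5, Parm1, Bcas3, Fgf1, Lama5, Gm13889, Rex1bd and Rasl12, with differences from 0.083 to 0.128, beside a median of 0.614 for all genes compared. When 1 mouse was left out, 3 of the 8 were still among the nearest 8 without c129, 4 without fl128, 5 without fl125 or fl126, 6 without c130 and 7 without c124, and all 8 were within the nearest 50 each time. Actg2 shaped this mean profile, because it fell so far in fl125. With the mean of the other 8 members, an alternative added after the values were seen, the nearest were Mob2, Tgfb3, 2310022B05Rik, Slc4a3, Pln, Rnd2, Flna and Slc8a2, with differences from 0.070 to 0.105, and 0 of the 8 were shared with the first set. Each of these 8 members was also set against the mean of the other 7. These profiles hold the difference between the groups, on which the list was chosen, so the ranks are only a description. Myh11 was the most typical of the 8, with 10 genes (0.134%) nearer to the mean of the others, followed by Smtn with 15 and Mylk with 17. Acta2, high in c124, was the least typical, with 753 genes (10.1%) nearer, and Actg2 set against the mean of the other 8 had 7327 genes (98.2%) nearer.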

How the data were processed

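Libraries were made for each of 3 control and 3 cD2KO mice. The authors aligned reads to mm10 with STAR 2.6.0a at default options, counted them with HTSeq 0.9.1 and deposited raw counts per gene; tools and versions are those of the submitters' processing notes, which also name bcl2fastq. How strand and duplicates were treated, and with which annotation, is not given in the sources used here. Groups were taken from the genotype in the labels. Of 31053 gene identifiers, 31011 were found in GENCODE M21, which gave names, positions and exon lengths.

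The minimum for testing was that of the study, an average above 10 after scaling with DESeq2 size factors. Counts were scaled by TMM and fitted with edgeR 4.0.16 in R 4.3.3 (robust quasi-likelihood, no covariate), with Benjamini-Hochberg adjustment over all 11633 genes tested, and genes were called at an unadjusted p under 0.05. Log2 CPM used a prior count of 2. Standard deviations are between mice. The members and the lists were chosen with earlier results of these data known. Besides the members, the text names their counterparts, Srf and its partners, up to 4 genes per direction with the smallest p below 0.05 in each other pathway list, some pericyte markers, Pax7 and the 8 genes nearest in profile. Other genes named, among them Agtr1a, Ednra, Kcnma1, Trpc6, Mcam, Gja4, Cox4i2, Itga7, Cdh15 and Myf5, were chosen after their values were seen.

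Alternatives were DESeq2 1.42.0, limma 3.58.1 voom, DESeq2 size factors, upper quartile or total count scaling, no minimum or a minimum of 50, a non-robust fit, adjusted p thresholds of 0.05 and 0.1, and leaving out each mouse. Of these fits, only the edgeR fit with TMM scaling was first run on simulated counts, and its outcome is not given here. At 2184073 to 3897787 counts per mouse, levels near 1 CPM rest on about 3 counts.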

Additional observations from a re-analysis of the deposited data

How the results depend on the processing

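No paired analysis was possible because the labels give the groups no shared replicate numbers. Each of the 9 contractile genes kept a log2 fold change above 0 under all alternatives and without any 1 mouse. The number of genes called higher, 621 in the fit reported, was 939 with no minimum, 33 with an adjusted p under 0.1 and 1 with an adjusted p under 0.05, and without a mouse from 402 (without fl128) to 933 (without fl125). The number called lower, 770, was 505 with a minimum of 50, 57 with an adjusted p under 0.1 and 0 with an adjusted p under 0.05, and without a mouse from 399 (without c129) to 874 (without fl125). DESeq2 called 611 higher and 697 lower. Scaling to the total count gave 439 higher and 953 lower, with a median over all genes of -0.09, and 2 related genes lower in place of 1, a number that was 1 to 3 without a mouse. The median of Srf and its partners, -0.06, was 0.35 with limma voom, 0.10 with no minimum, 0.22 without c129 and 0.10 without fl126. That of the endothelial markers, -1.18, was -0.63 with a minimum of 50, where only 6 of them were tested. It was -1.83 without fl128 and -0.67 without c129. The cause was not tested in any of these. With 3 mice per group no outlying mouse could be tested for. Genes near 3 counts, such as Dio2 and Myocd, are limited by depth.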
